A study of Homo sapiens with 2 samples.

Results

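The genes of cholesterol and fatty acid synthesis were followed after depletion of IFITM1 in HT-29, a widely used human cell line from a colorectal adenocarcinoma. The list was drawn up by function, but with earlier results of these data known, so its comparisons with all genes are descriptive. It names 34 genes in 5 roles: the mevalonate pathway, the later sterol steps, control of the SREBP factors, lipogenesis and sterol transport. Of these, 32 were read by at least 1 probe set (a group of array probes summarised as 1 signal) that names a single gene, out of 19775 genes so read. FDFT1 and CYP51A1 had no probe set that names them alone in the probe table used, and were not analysed here.

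Cells of the siLuc group received an siRNA against firefly luciferase, which they lack, and served as the baseline. Cells of the siIFITM1 group received an siRNA against IFITM1, an interferon-induced membrane protein that restricts virus entry. Total RNA from both was taken 72 h after transfection. There was 1 sample and 1 array per siRNA, so variation between cultures was not measured and the values carry no test.

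IFITM1 itself (Entrez gene 8519) went from a signal of 640 to one of 237, or 37.1% of the baseline. The ID ending of that probe set marks probes shared between transcripts. Of 12 markers of colon epithelium, 9 were above the 75th percentile of signal on the arrays, while CDX1, CDX2 and GPA33 were below its median. Markers of leukocytes, endothelium, fibroblasts and hepatocytes were low: 18 of 19 were read, 0 were above the 75th percentile and 12 were below the median. Their summed signal was 1336 with siLuc and 1401 with siIFITM1, against 168397 and 169245 for the epithelial markers.

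Cholesterol is built from acetyl-CoA by way of mevalonate, isoprenoid diphosphates and squalene, which is closed into lanosterol and trimmed to cholesterol in the endoplasmic reticulum. Transcription of most of these enzymes is driven by the SREBP factors, which are held in the endoplasmic reticulum while sterols are plentiful and released to the nucleus when they run short. SREBP factors also drive fatty acid synthesis, and the LXR receptors answer a surplus of sterol by raising genes of sterol export.

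Each value below is a log2 ratio of siIFITM1 over siLuc, computed from linear MAS5 signals at the gene's brightest probe set, unless a signal is named. Genes whose mean signal reached the median of all probe sets, 57.4, passed the filter on dim signals, as 12225 genes did, including all 32 read members. Genes at or above the 75th percentile, 393, are called brighter, and the others that passed are called dimmer. Among brighter probe sets, ratios of the same gene differed with an SD of 0.193, and among dimmer ones with an SD of 0.496. These SDs measure disagreement between probe sets, not variation between cultures.

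Most of the enzymes of synthesis had slightly higher signals with siIFITM1, while regulators and transporters went both ways. Of the 32 members, 20 had a ratio above 0 (62.5%), against 47.4% of all genes that passed, and the median was 0.12 against -0.02. Most members are brighter genes, and dimmer genes leaned lower (41.9% above 0). Among brighter genes alone, 65.5% of the 29 members were above 0, against 50.5% of all, with medians of 0.144 and 0.003. The 16 enzymes of the mevalonate and sterol steps had 13 above 0 and a median of 0.17. By role the medians were 0.30 for the mevalonate pathway, 0.15 for the sterol steps and 0.23 for lipogenesis, but -0.06 for SREBP control and -0.17 for sterol transport. The last median was 0.33 when all probe sets of a gene were averaged, so sterol transport had no settled direction.

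**Figure D1:**
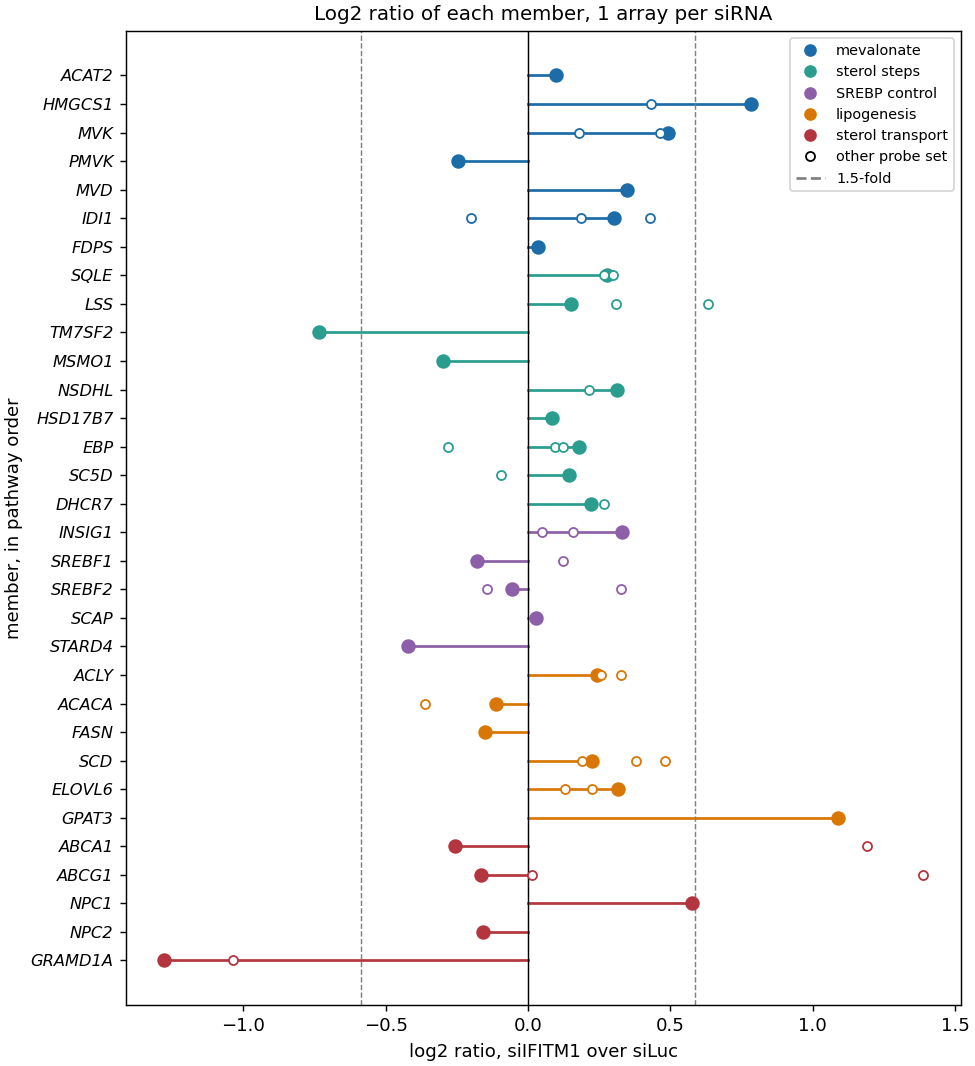
Log2 ratio of siIFITM1 over siLuc for the 32 read members in pathway order, from 1 array per siRNA. Filled points are the brightest probe set of each gene, open points its other probe sets above the filter, colours the 5 roles, and dashed lines 1.5-fold in either direction. HMGCS1 and GPAT3 lie beyond the upper line, TM7SF2 and GRAMD1A beyond the lower one.

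Few members moved far. A fold of 1.5 in either direction (0.585 on the log2 scale) was reached by 4 of the 32. HMGCS1 and GPAT3 were higher, or 6.25% of the members against a background of 4.18% of all genes that passed. TM7SF2 and GRAMD1A were lower, also 6.25%, against 7.34%. Against all genes that passed, the members' counts were near the background in both directions. Beyond 2-fold, GPAT3 was the only higher member (background 1.01%) and GRAMD1A the only lower one (background 2.01%). The fold is reached less often by brighter genes, of which 1.86% were higher and 1.77% lower, than by dimmer genes, of which 8.26% were higher and 17.1% lower. HMGCS1, GPAT3 and TM7SF2 are among the 29 brighter members, and GRAMD1A is 1 of the 3 dimmer ones. Among brighter members, 2 of 29 (6.90%) were thus higher and 1 of 29 (3.45%) lower. Both shares were above those of all brighter genes, but they rest on 2 genes and 1 gene and were not tested. NPC1, at 0.575 or 1.49-fold, lay just short of the line, followed by MVK at 0.49 and STARD4 at -0.42. The members that passed it by least were TM7SF2 at -0.74 and HMGCS1 at 0.78.

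**Figure D2:**
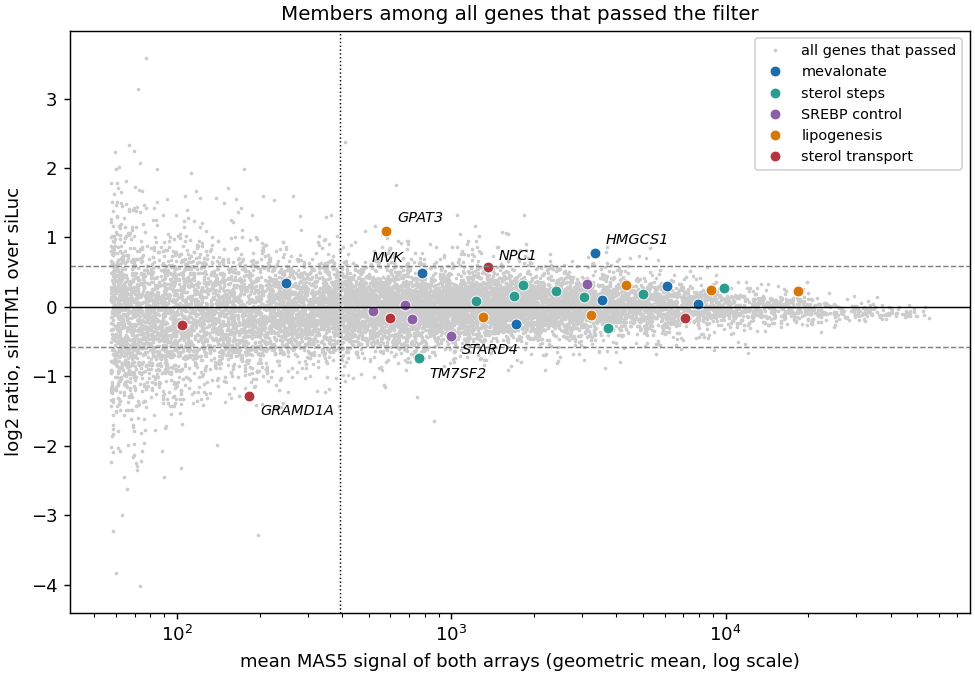
Log2 ratio against the mean signal of both arrays (log scale) for the 12225 genes that passed the filter, in grey, with the members coloured by role. Dashed lines mark 1.5-fold, and the dotted line marks a signal of 393, to the right of which genes are called brighter. The grey cloud widens to the left, where GRAMD1A lies, and is narrow where most members lie.

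Upstream sequence is shown for 6 members that stood high or low in their role or carry the sterol regulatory element. The stretches are the 200 bases before the outermost RefSeq start of each gene (GRCh38.p14), printed 5′ to 3′ on the gene's strand. HMGCS1 was the highest mevalonate enzyme, NSDHL the highest sterol enzyme, MSMO1 and TM7SF2 the lower sterol enzymes, SREBF2 encodes a regulator of the pathway, and GRAMD1A was the lowest member. Capitals mark matches, on either strand, to any of 4 motifs: the sterol regulatory element TCACNCCAC bound by SREBP factors, the CCAAT box bound by NF-Y, the GC box GGGCGG bound by Sp1 and the E box CACGTG.
HMGCS1, chr5:43313413-43313612, minus strand: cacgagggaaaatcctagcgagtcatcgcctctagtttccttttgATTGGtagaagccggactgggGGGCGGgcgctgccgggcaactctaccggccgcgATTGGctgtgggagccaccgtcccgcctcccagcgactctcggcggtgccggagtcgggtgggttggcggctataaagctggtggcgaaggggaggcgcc
NSDHL, chrX:152830863-152831062, plus strand: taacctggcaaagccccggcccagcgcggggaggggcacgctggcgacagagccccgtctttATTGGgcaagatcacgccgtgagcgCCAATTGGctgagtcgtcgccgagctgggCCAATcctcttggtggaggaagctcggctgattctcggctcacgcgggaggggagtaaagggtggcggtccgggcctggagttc
MSMO1, chr4:165327469-165327668, plus strand: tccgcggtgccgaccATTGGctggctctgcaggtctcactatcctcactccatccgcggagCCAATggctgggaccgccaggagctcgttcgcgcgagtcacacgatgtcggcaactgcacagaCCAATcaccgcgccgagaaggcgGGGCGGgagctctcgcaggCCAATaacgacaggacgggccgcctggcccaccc
TM7SF2, chr11:65111672-65111871, plus strand: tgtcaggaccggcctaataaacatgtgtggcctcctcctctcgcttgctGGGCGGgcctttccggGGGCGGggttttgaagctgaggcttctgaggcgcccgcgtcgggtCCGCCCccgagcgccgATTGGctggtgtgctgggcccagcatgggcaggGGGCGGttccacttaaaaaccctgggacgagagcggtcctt
SREBF2, chr22:41832905-41833104, plus strand: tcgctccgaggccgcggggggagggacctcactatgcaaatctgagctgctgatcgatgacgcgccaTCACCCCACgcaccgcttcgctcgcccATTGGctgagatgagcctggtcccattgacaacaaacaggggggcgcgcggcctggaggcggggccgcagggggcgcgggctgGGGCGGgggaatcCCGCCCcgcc
GRAMD1A, chr19:34994527-34994726, plus strand: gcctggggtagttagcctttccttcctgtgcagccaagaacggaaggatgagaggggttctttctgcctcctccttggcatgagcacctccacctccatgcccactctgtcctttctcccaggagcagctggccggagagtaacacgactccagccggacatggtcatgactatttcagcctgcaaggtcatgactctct

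The CCAAT box was common before these genes. RefSeq windows of 300 bases (250 before and 50 after a start) were given for 28 of the 32 members, 39 windows in all. CCAAT or its reverse stood in 24 of the 39 (61.5%), against 34.9% of 14369 windows of genes that passed the filter and 34.6% of all 35116 windows searched. Windows on chromosome 8, or of another length, were left out of the search. NSDHL and MVK had 5 matches in a window and MSMO1 had 4, so the box was found before enzymes with higher as well as lower signals. Matches on opposite strands were counted apart even where they overlap, as in NSDHL. Windows of 1 gene can overlap too, as at GPAT3, ACLY and SC5D, so the 39 windows are not independent. Of the 20 members with a match, 14 had a ratio above 0 and the median was 0.17. Of the 8 without, 4 were above 0 and the median was -0.08. These 8 were ABCA1, ELOVL6, GPAT3, GRAMD1A, NPC1, PMVK, SCAP and SREBF1. Only PMVK among them is a mevalonate or sterol enzyme, so the split also follows role. For the other motifs the median was lower with a match than without. It was 0.14 against 0.31 for the GC box, where 1 member had no match. For CACGTG it was 0.14 against 0.18, and for TCACNCCAC, matched in 1 member, -0.06 against 0.15.

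The GC box stood in 92.3% of the members' windows, against 64.7% for genes that passed. CACGTG stood in 15.4% against 9.44%, with matches at ABCA1, INSIG1, LSS, SC5D and SCAP. The element TCACNCCAC was found in 1 window, that of SREBF2 (2.56% against 1.04%), where the match began 133 bases before the start. Variants of the element that differ from these letters were not searched, and the 200 bases printed for GRAMD1A hold none of the 4 motifs. Its windows did hold the GC box, at base 43 after the printed start and 4 times at another start. The search describes letters in a window and was not set against the ratios by any test.

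The mevalonate pathway turns acetyl-CoA into the isoprenoid units of cholesterol, and 6 of its 7 enzymes had a ratio above 0. HMGCS1 (Entrez gene 3157), which makes HMG-CoA, the precursor of mevalonate, had a signal of 2543 with siLuc and 4373 with siIFITM1, a ratio of 0.78 or 1.72-fold. Its other probe set went from 1616 to 2180, a ratio of 0.43. Both were well beyond the 0.193 of brighter probe sets, but only the brightest probe set passed 1.5-fold. HMGCS1 held rank 252 from the highest among the 12225 genes.

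MVK, the kinase that adds the first phosphate to mevalonate, went from 661 to 931 (0.49). Its dimmer probe sets gave 0.18 and 0.47, so all of those above the filter were higher. PMVK, which adds the next phosphate, went the other way, from 1874 to 1581 (-0.24), and was read by 1 probe set. MVD, which decarboxylates the product to isopentenyl diphosphate, went from 221 to 281 (0.35). It was a dimmer gene, and its ratio was within the SD of 0.496 for that class.

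IDI1, the isomerase of isopentenyl diphosphate, went from 5493 to 6779 (0.30). Its other probe sets were at 0.43, -0.20 and 0.19, and so did not share a sign. The remaining enzymes at either end of the pathway were nearly level on the arrays. ACAT2, the thiolase that joins acetyl-CoA units, went from 3421 to 3662 (0.10), and FDPS, which makes farnesyl diphosphate, from 7843 to 8042 (0.04). Both ratios were within the SD of 0.193.

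Among the later sterol steps, 7 of the 9 read enzymes had a ratio above 0, by small amounts. SQLE, the epoxidase that prepares squalene for ring closure, went from 8998 to 10914 (0.28). Its 4 probe sets had the narrowest range of the 19 members with several above the filter, from 0.27 to 0.30. LSS, which closes the rings to lanosterol, went from 1603 to 1779 (0.15), with dimmer probe sets at 0.31 and 0.63. The last went from 46.1 to 71.4, so its siLuc signal was below the filter floor of 57.4.

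The enzymes that strip methyl groups from the ring did not move together. NSDHL, the dehydrogenase of that step, went from 1637 to 2032 (0.31), with its other probe set at 0.21. HSD17B7, the reductase that follows it, went from 1190 to 1262 (0.09). MSMO1, the oxidase that starts the removal, was lower, from 4132 to 3357 (-0.30). MSMO1 and HSD17B7 were each read by 1 probe set.

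TM7SF2 (Entrez gene 7108), a sterol reductase whose reaction the lamin B receptor can also carry out, was the lowest enzyme of the pathway. Its signal was 982 with siLuc and 590 with siIFITM1, a ratio of -0.74 or 1.66-fold lower. The value rests on 1 probe set, whose ID ending marks probes shared between transcripts, and it had rank 525 from the lowest.

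The last enzymes before cholesterol were slightly higher. DHCR7, which reduces the last double bond of one branch, went from 2231 to 2603 (0.22), with its other probe set at 0.27. EBP, which shifts a ring double bond, went from 4699 to 5326 (0.18). Its next 2 probe sets were at 0.10 and 0.12, and a dimmer one at -0.28. The desaturase gene SC5D went from 2908 to 3213 (0.14), with a dimmer probe set at -0.09. Only DHCR7 among these was beyond the SD of 0.193.

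Among the genes of SREBP control, INSIG1 was higher and STARD4 lower at the brightest probe set. SREBF1, SREBF2 and SCAP showed little difference at the level of RNA. INSIG1, which holds SREBP factors in the endoplasmic reticulum and is itself induced by them, went from 2788 to 3502 (0.33). Its other probe sets gave 0.16 and 0.05, within the SD of 0.193, so all 3 were above 0 but spread over 0.28. SREBF2, the main factor for sterol genes, went from 527 to 506 (-0.06), and SREBF1, the main factor for fatty acid genes, from 765 to 675 (-0.18). Dimmer probe sets of both included ratios of the other sign, 0.32 for SREBF2 and 0.12 for SREBF1. SCAP, the escort of SREBP factors, went from 669 to 683 (0.03). All 3 brightest probe sets of SREBF1, SREBF2 and SCAP were within the SD of 0.193. The sterol carrier STARD4, whose gene is a known SREBP target, was lower, from 1157 to 865 (-0.42), on 1 probe set.

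**Figure D3:**
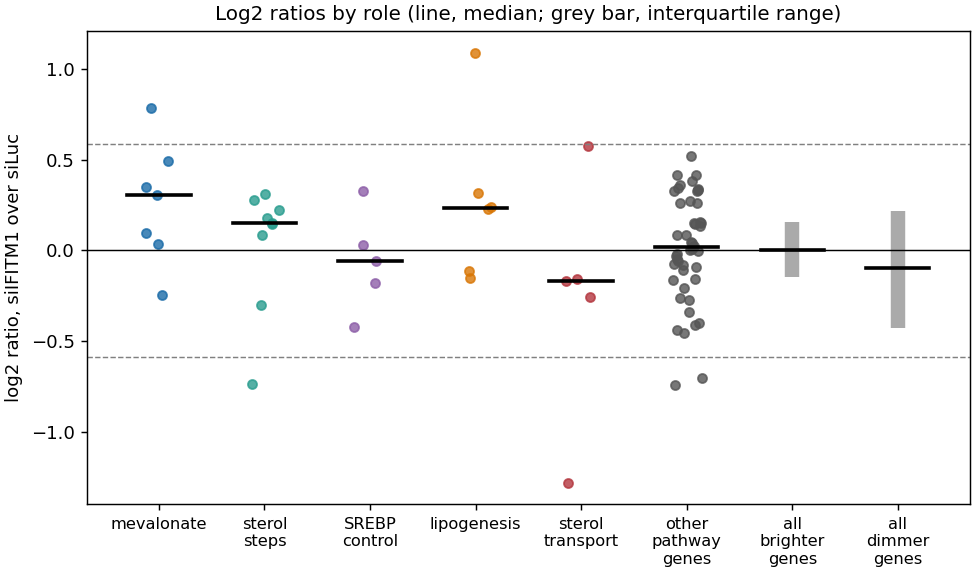
Log2 ratios of the read members by role, with 47 other genes of lipid metabolism beside them; each point is a gene and each black line a median. Grey bars span the interquartile range of all brighter and all dimmer genes, and dashed lines mark 1.5-fold. Medians lie above 0 for the mevalonate pathway (0.30), sterol steps (0.15) and lipogenesis (0.23), and each role holds genes of both signs.

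Among the members of fatty acid synthesis, ACLY, SCD and ELOVL6 were slightly higher, and ACACA and FASN were not. ACLY, which makes cytosolic acetyl-CoA from citrate, went from 8159 to 9641 (0.24), and its 3 probe sets ran from 0.24 to 0.33. ACACA, which makes malonyl-CoA, went from 3354 to 3104 (-0.11), with its other probe set at -0.36. FASN, the fatty acid synthase, went from 1374 to 1236 (-0.15) at its only probe set above the filter. The ratios of ACACA and FASN at their brightest probe sets were within the SD of 0.193.

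SCD, the desaturase that makes oleate, went from 16976 to 19854 (0.23), and its 4 probe sets were all higher, from 0.19 to 0.48. ELOVL6, which lengthens palmitate, went from 3885 to 4837 (0.32), with other probe sets at 0.13 and 0.23. GPAT3 (Entrez gene 84803), an acyltransferase of the endoplasmic reticulum that starts the assembly of glycerolipids, was the highest member. Its signal was 398 with siLuc and 845 with siIFITM1, a ratio of 1.09 or 2.13-fold, at rank 94 from the highest. GPAT3 was read by 1 probe set, with probes shared between transcripts, and its siLuc signal lay close to the limit of 393 between brighter and dimmer genes.

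The sterol transporters went apart. NPC1, which passes cholesterol out of lysosomes, went from 1114 to 1659 (0.58), while its soluble partner NPC2 went from 7511 to 6728 (-0.16). NPC1 was beyond the SD of 0.193 and NPC2 was not. GRAMD1A (Entrez gene 57655), which carries cholesterol from the plasma membrane to the endoplasmic reticulum, was the lowest member. Its signal went from 286 to 118, a ratio of -1.28 or 2.42-fold lower. The other probe set gave 99.5 and 48.5 (-1.04), and its siIFITM1 signal was under the filter floor of 57.4. GRAMD1A was thus more than 2-fold lower at both of its probe sets.

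The exporters ABCA1 and ABCG1, which load cholesterol onto lipoproteins and are classic LXR targets, had no settled direction. ABCA1 went from 114 to 95.1 (-0.26) at its brightest probe set and from 56.1 to 128 (1.19) at the next. ABCG1 went from 634 to 565 (-0.17), with dimmer probe sets at 0.01 and 1.39, the last from 53.8 to 141. In each gene the higher ratio came from a probe set whose siLuc signal was below the filter floor.

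Where a gene was read more than once above the filter, its probe sets all shared a sign in 12 of 19 members (63.2%). The share among all genes so read was 48.4%. Signs were mixed in IDI1, EBP, SC5D, SREBF1, SREBF2, ABCA1 and ABCG1. Of 19 members with several probe sets above the filter, 10 were higher at every one (52.6%), against 22.6% of the 6087 genes with several such probe sets. These were HMGCS1, MVK, SQLE, LSS, NSDHL, DHCR7, INSIG1, ACLY, SCD and ELOVL6. Only ACACA and GRAMD1A were lower at every one (10.5% against 25.8%). The backgrounds by direction include dimmer genes, which leaned lower. Of the 48 brighter probe sets of members, 36 were above 0, against 49.97% of the 12214 brighter probe sets that name 1 gene. Probe sets of 1 gene share their RNA and array, so these shares describe the pair of samples and add no replicate. The ratio was beyond the SD of its class in 17 members, 12 higher and 5 lower, or 53.1%, against 36.8% of all genes that passed.

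**Figure D4:**
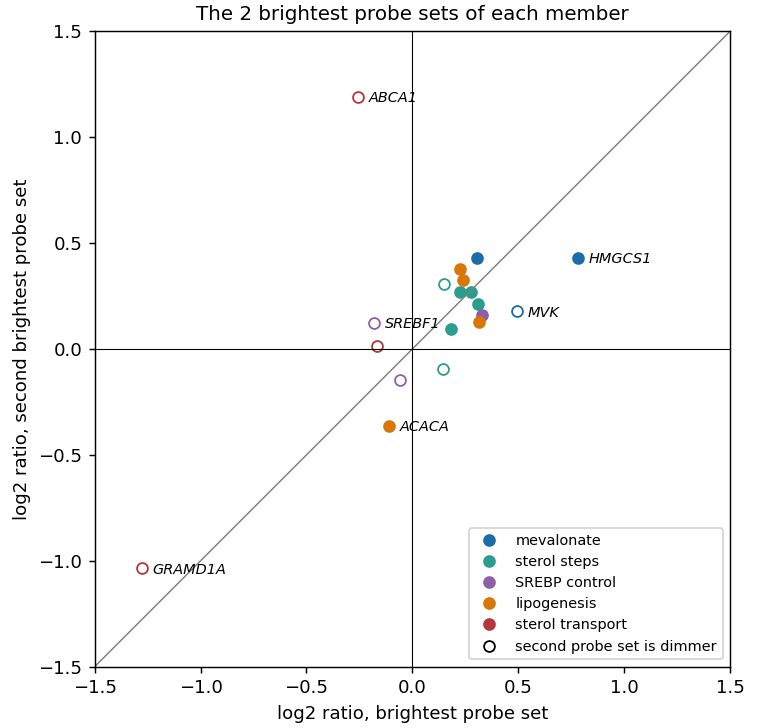
Log2 ratio at the second brightest probe set against that at the brightest, for the 19 members with several probe sets above the filter; the diagonal marks equal ratios. Open points have a dimmer second probe set. Most points cluster in the upper right quadrant, GRAMD1A lies low on both axes, and ABCA1 lies far from the diagonal (-0.26 and 1.19).

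Other genes of lipid metabolism, 63 listed by function outside the members, were split more evenly by sign, a difference that was not tested. This list, too, was drawn up with earlier results of these data known. Of the 47 that passed the filter, 26 were above 0 (55.3%) and the median was 0.02. No gene of the 47 was 1.5-fold higher and 2 were 1.5-fold lower (4.26%). LIPA, the lysosomal acid lipase that frees cholesterol from its esters, went from 1336 to 798 (-0.74). AGPAT4, an acyltransferase of phospholipid synthesis, went from 121 to 74.4 (-0.70) and was a dimmer gene. INSIG2, singled out after its value was seen as the highest of the list, went from 2170 to 3107 (0.52), on 1 probe set. NR1H3, which encodes an LXR receptor, went from 989 to 750 (-0.40), and MYLIP, an LXR target, from 680 to 856 (0.33), with 6 probe sets from -0.48 to 0.33. These 2 were also named after their values were seen, as were the desaturases and elongases that follow. ELOVL7 was higher (0.42), while ELOVL5 (-0.44), FADS2 (-0.41), SCD5 (-0.27) and FADS3 (-0.15) were lower. The lower ones are dimmer genes with ratios within the SD of 0.496, and another FADS3 probe set was at 0.63.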

How the data were processed

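Total RNA was purified on columns, amplified and labelled with biotin, per the labels' protocols, and hybridised to 1 single-colour Affymetrix array per sample. The values deposited by the authors are MAS5 signals, linear intensities all above 0, per the submitters' processing notes; no MAS5 version is named there, and detection calls were not used. The mean signal after trimming 2% at each end was 500.1 on both arrays, and the median was 63.9 with siLuc and 59.7 with siIFITM1.

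Of 54613 probe sets that are not controls, 41091 name 1 gene, 1801 several and 11721 none. Symbols were updated by Entrez identifier through RefSeq (GRCh38.p14), where 99.9% matched. Log2 ratios were taken with no further scaling, and a gene was represented by its probe set of highest mean log2 signal. All read members are named. Other lipid genes were named if past 1.5-fold, apart from INSIG2, NR1H3, MYLIP and the desaturases and elongases, which were named after their values were seen. The members and lists were chosen with earlier results of these data known. With 1 array per siRNA, ratios are described by size, and the number of arrays limits precision. Alternatives were other normalizations, filters, probe set choices and fold lines. The steps were checked on simulated data with shifts well past the 1.5-fold line, planted in brighter genes only. That check does not cover small ratios or shifts in dimmer genes. Python 3.11.15, pandas 2.3.3, numpy 2.4.6 and statsmodels 0.14.6 were used. No paired analysis was possible because each group has 1 sample.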

Additional observations from a re-analysis of the deposited data

How the results depend on the processing

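Under median centring, quantile normalization, removal of a loess trend (span 0.3), a pseudocount of 32, a filter at the 75th percentile or none, averaging of probe sets, omission of shared probes and use of the second brightest probe set, the members' median stayed between 0.07 and 0.18. No member changed sign under the 3 normalizations. The count of members 1.5-fold higher, 2 as reported, was 3 after median centring, where NPC1 reached 0.61, and it was 4 with averaged probe sets, 1 at the second brightest probe set and 1 at a 2-fold line. The count 1.5-fold lower, also 2, was 1 at a 2-fold line, with the stricter filter, without shared probes and at the second brightest probe set; the last 3 tested fewer members (29, 22 and 19). The number above 0 was 13 of 22 without shared probes. The sterol transport median of -0.17 was 0.33 with averaged probe sets, which count dim ones, and 0.01 at the second brightest. That of SREBP control, -0.06, was 0.03 and 0.12 under the same choices. Of 262 values of single members under the alternatives, 13 moved by more than the SD between probe sets of their class and 0 of the 4 members past 1.5-fold changed sign. Of these 4, GPAT3 and TM7SF2 have 1 probe set each, with shared probes. The other choices of probe set therefore could not change their sign. Counts above 0 and medians by role were added after the data were seen. No paired analysis was possible because each group has 1 sample. Signals below the floor of 57.4 may not differ from background.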

Other observations

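Below the filter floor, 8 further probe sets of members entered only the alternative that averaged a gene's probe sets. FASN had 1, from 16.4 to 138 (3.07). NPC1 had 3, from 5.58 to 43.3 (2.96), from 22.4 to 67.3 (1.59) and from 26.2 to 18.0 (-0.54). ABCA1 had 2, at -0.62 and 1.38, and MVK and ABCG1 had 1 each, at 0.53 and 0.10.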
